A study of Rattus norvegicus with 23 samples.

Results

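The hearts described here are the 5 newborn rat hearts exposed to maternal diabetes and high-fat (HF) diet together, set against the 7 control hearts, 12 of the 23 hearts of the series. They were chosen by their labels alone. The dams of the combination exposed pups were Sprague Dawley rats that ate HF diet from 28 days or more ahead of mating until delivery, received 65 mg/kg of streptozotocin on gestational day 14 and were treated with insulin toward a blood glucose of 200 to 400 mg/dl. The dams of the controls ate control diet and received citrate buffer. Streptozotocin destroys the insulin-producing beta cells, so the dams were diabetic only in late pregnancy. All pups were born at gestational day 22 and their whole hearts were taken on postnatal day 1, males and females together. The remaining hearts, 6 exposed to diabetes with control diet and 5 to HF diet with citrate buffer, enter the fit and are quoted only at the end, for a few genes and 1 gene list.

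Around birth the heart changes its fuel. The fetal heart works at low oxygen and draws on glucose and lactate through glycolysis, with the hypoxia-inducible factors holding glycolytic genes on, while the newborn heart turns to fatty acids and builds mitochondria with their own ribosomes and respiratory chain. Excess maternal glucose and lipid reach the fetus across the placenta, and the fetus answers the glucose with insulin of its own. The comparison asks how the heart transcriptome differs when both fuels were in excess.

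Each heart has its own Affymetrix Rat Gene 1.0 ST array of 29170 probe sets. Values are on a log2 scale and each probe set is centred on its median over the 23 hearts, so a value of 1 is a doubling over the middle heart, differences can be read and levels cannot. For the same reason the cardiac identity of the samples could not be checked from marker levels. A probe set or gene is said to pass the threshold when its groups differ by more than 0.322 on the log2 scale in either direction, the fold limit of the study's methods, with an unadjusted p under 0.05 in limma. No probe set passed a Benjamini-Hochberg adjusted p under 0.05 in limma, where the lowest was 0.495 and 2889 probe sets had an unadjusted p under 0.05, nor by the methods' t-test, where 1457 had. Every call below is therefore a call at the unadjusted threshold. A difference in a whole heart cannot tell more cells of a type from more RNA per cell.

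Several features of the hearts bear on what follows. Each label holds a code whose stem recurs in some hearts. Combination hearts 1 and 2 share a stem, hearts 4 and 5 share another and heart 3 has its own, while the 7 controls have 7 stems. No source used here says whether a stem marks a dam or litter. Combination heart 1 had the widest array of the 12, with an SD over probe sets of 0.393, against 0.161 to 0.309 in the other combination hearts and 0.163 to 0.333 in controls. The lung list averaged -0.12 to -0.002 in the 5 combination hearts, against 2.40 in control heart 1 and -0.13 to 0.03 in the other controls, with Sftpc (surfactant protein C) at 5.93 in control heart 1. The lymphocyte and MHC class II list averaged -0.05 to 0.11 in combination hearts, against 2.42 in control heart 1 and -0.16 to 0.10 in the other controls, with Cd3g (part of the T cell receptor complex) at 5.73 in control heart 1. Some hearts of a group may come from 1 litter, and the p-values cover only the spread found among the hearts.

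In the combination exposed hearts 965 of the 29170 probe sets passed the threshold (3.31%), 614 higher (2.1%) and 351 lower (1.2%). Among the 14506 named genes, each read from 1 probe set, 368 were higher (2.54%) and 151 were lower (1.04%). These shares are the background for the list counts below. The differences were small. The median among the higher genes was 0.41, with 4 genes above 1, and the median among the lower genes was -0.38, with none below -1. Only 8 genes that passed the threshold (0.0551%) had no overlap between the 5 combination and the 7 control hearts.

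The genes that passed were not shared evenly by the 5 hearts. Of the 368 higher genes, 348 lay above all 7 controls in heart 1, 298 in heart 2 and 201 in heart 3, but 13 in heart 4 and 33 in heart 5. Of the 151 lower genes, 141 lay below all controls in heart 1, 122 in heart 2 and 111 in heart 3, but 20 in heart 4 and 15 in heart 5. Hearts 4 and 5, which share a code stem, thus sat mostly inside the control range at the very genes that set the group apart. Hearts 1 and 2, which share the other stem, and heart 3 lay outside it. These genes were chosen with all 5 hearts, so the counts describe them and test nothing.

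**Figure D1:**
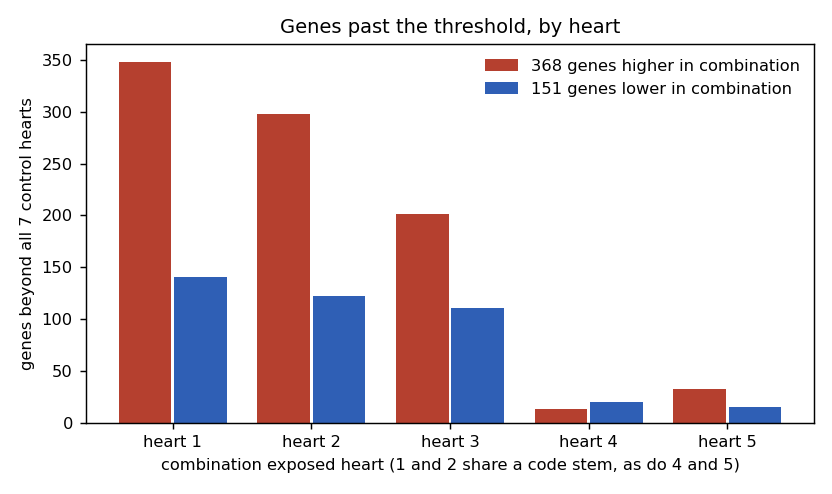
Genes past the threshold that lay beyond all 7 control hearts in each combination exposed heart, above them for the 368 higher genes (red bars) and below them for the 151 lower genes (blue bars). Heart 1 holds 348 and 141 of them, heart 4 holds 13 and 20, and heart 5 holds 33 and 15.

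Choosing the genes without the heart in question gave a like order. Genes were called without a heart and then read in that heart as its distance from the mean of the controls. The controls in that mean also helped to choose the genes, which pushes each distance toward the call. The distances therefore describe the hearts and test nothing. The 103 genes called higher without combination heart 1 stood at a median of 0.73 in it, and the 207 called without heart 2 at 0.45. For heart 3 the median was 0.19 over 423 genes. For heart 5 it was 0.12 over 561 genes, and for heart 4 it was 0.01 over 729 genes, of which 51.7% lay above the control mean. The genes called lower gave -0.35, -0.31 and -0.22 in hearts 1, 2 and 3, against -0.04 and -0.07 in hearts 4 and 5. Among controls read in the same way, higher genes stood at 0.38 in heart 5, 0.25 in heart 3 and 0.20 in heart 6, and at -0.22 in heart 1. For higher genes, control hearts 3, 5 and 6 thus stood farther in the direction of the call than combination hearts 3, 4 and 5. Control heart 2, at 0.08, also stood farther than combination heart 4. For lower genes, control hearts 5, 3, 6 and 2 stood at -0.33, -0.235, -0.23 and -0.17. Control hearts 1, 4 and 7 lay on the opposite side, at -0.22, -0.095 and -0.08 for higher genes and 0.04, 0.08 and 0.08 for lower genes.

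**Figure D2:**
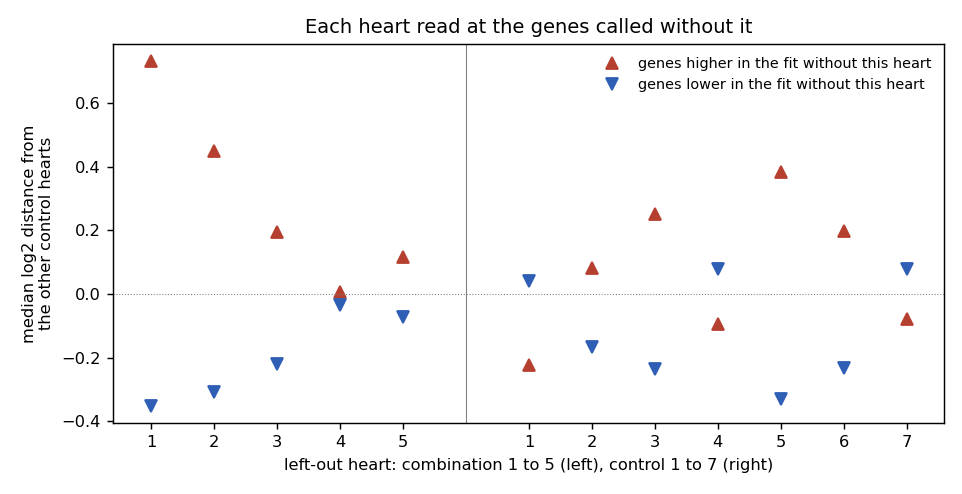
Median log2 distance of each heart from the mean of the other control hearts, at the genes called higher (red, upward) or lower (blue, downward) in the fit without that heart, with the 5 combination hearts on the left and the 7 controls on the right. Combination hearts 1 to 3 run from 0.73 to 0.19 for higher genes and heart 4 lies at 0.01, while control heart 5 lies at 0.38.

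The number of calls moved with the hearts in the same way. Without combination hearts 1 and 2, 81 genes passed (0.558%), of which 14 were among the 368 higher and 14 among the 151 lower genes called with all hearts. Without hearts 4 and 5, 1878 genes passed (12.9%), and 194 probe sets then passed an adjusted p under 0.05. Without combination heart 1 and control heart 1, the 2 arrays that stand apart, 92 genes passed (0.634%). In all 12 fits that left out 1 heart, 74 genes passed each time (0.51%), 56 higher and 18 lower. Single hearts decided many of the other calls. Without combination heart 1, 277 of the 368 higher and 113 of the 151 lower genes fell short of the threshold, and without control heart 1, 174 and 68 did. Of 93 genes past the threshold that are followed through every fit, 45 fell short without combination heart 1 and 27 without control heart 1.

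The genes that passed in every one of these fits and differed most are given by heart. Ahsp, the chaperone that holds free alpha globin in red cell precursors, read 1.16, 2.51, 1.16, -0.10 and -0.49 in combination hearts 1 to 5, against -1.65 to 0.50 in controls, with a median of -0.58. Its difference was 1.38 (SE 0.43; limma adjusted p = 0.495; exact permutation p = 0.0391, two-sided). Hearts 1 to 3 were above every control, and hearts 4 and 5 lay among them. The permutation p-values here and below are unadjusted, and most belong to genes chosen by their differences in these same hearts. They describe those genes and are no independent test of them. Ak4, an adenylate kinase of the mitochondrial matrix induced by low oxygen, read 1.67, 2.52, 1.44, -0.01 and -0.04 in combination hearts, against -0.84 to 0.68 in controls (difference 1.26, SE 0.42; exact permutation p = 0.0278). Bdh1, the mitochondrial enzyme that interconverts the ketone bodies acetoacetate and 3-hydroxybutyrate, read 1.497, 1.56, 1.40, 0.03 and 0.09 in combination hearts, against -1.004 to 0.70 in controls (difference 1.20, SE 0.37; exact permutation p = 0.0114). Chrdl1, a secreted antagonist of BMP signals, read 1.37, 1.65, 1.48, 0.00 and 0.02 in combination hearts, against -0.50 to 0.42 in controls (difference 1.07, SE 0.34; exact permutation p = 0.0101). In all of these genes the 3 high hearts were the same.

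Kcne1, the beta subunit of the slow delayed rectifier potassium channel, was higher by 0.89 (SE 0.32) and Slc18a1, a vesicular monoamine transporter, by 0.87 (SE 0.25). Plin3, a lipid droplet coat protein, was higher by 0.81 (SE 0.25) and Olfm4, a secreted glycoprotein of neutrophils and gut crypts, by 0.75 (SE 0.26). Mgarp, a mitochondrial protein induced by low oxygen that takes part in the movement of mitochondria, read 1.53, 1.499, 0.62, 0.02 and 0.09 in combination hearts, against -0.35 to -0.004 in controls, a difference of 0.87 (SE 0.25; exact permutation p = 0.00126, the smallest that 792 splits can give). All 5 hearts were above all controls, but hearts 4 and 5 lay close to the highest of them. Cyp11a1, which cleaves cholesterol to start steroid synthesis, read 2.29 in heart 1 and 0.74, 0.31, 0.01 and 0.21 in the other combination hearts, against -0.45 to 0.19 in controls. Its difference was 0.78 (SE 0.27) with all hearts and 0.38 without heart 1.

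Lower genes were taken by the same 12 fits, and of these only Dtx4 and Kmt5b also passed without combination hearts 1 and 2 together. Adra1b, the alpha-1B adrenergic receptor that carries catecholamine signals to heart muscle, read -1.29, -1.005, -0.64, -0.02 and 0.14 in combination hearts, against -0.63 to 0.48 in controls (difference -0.75, SE 0.25; exact permutation p = 0.0265). Dtx4, a ubiquitin ligase of the Deltex family in Notch signalling, read -0.63, -0.55, -0.38, -0.15 and -0.08 in combination hearts, against -0.004 to 0.53 in controls (difference -0.51, SE 0.11; exact permutation p = 0.00126). All 5 combination hearts lay below all 7 controls, hearts 4 and 5 by the least. Pirt, a regulator of TRP channels in sensory neurons, differed by -0.72 (SE 0.27), Drd4, a dopamine receptor, by -0.63 (SE 0.23) and Slco2b1, an organic anion transporter, by -0.56 (SE 0.19). Pde2a, a phosphodiesterase stimulated by cyclic GMP, differed by -0.52 (SE 0.14), Smarcd1, a subunit of the BAF chromatin remodeller, by -0.50 (SE 0.16) and Kmt5b, which methylates histone H4 lysine 20, by -0.48 (SE 0.16). Fbxl20, an F-box protein, differed by -0.56 (SE 0.19) and Pdzd2, a PDZ domain protein, by -0.53 (SE 0.17).

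**Figure D3:**
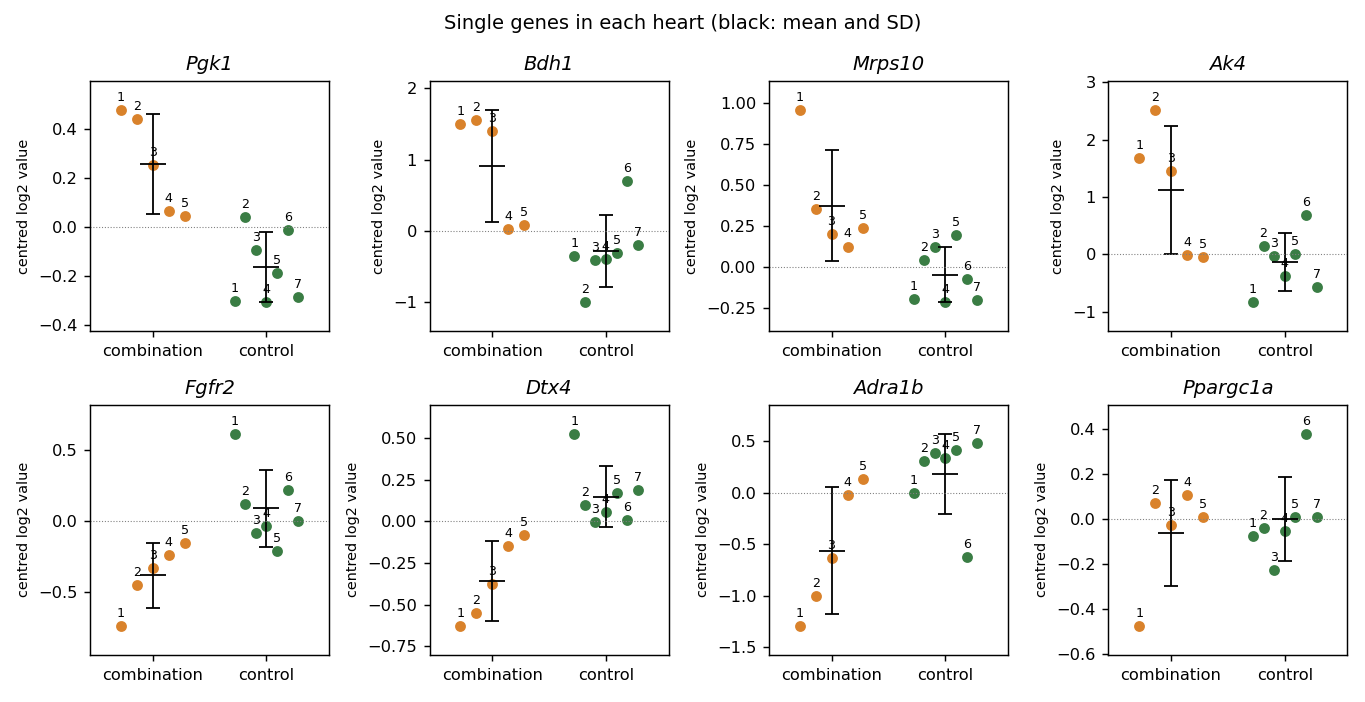
Centred log2 values of 8 genes in each heart, combination exposed on the left (orange) and control on the right (green), with the replicate number beside each point and the group mean and SD in black. Pgk1, Bdh1, Mrps10 and Ak4 are highest in combination hearts 1 and 2, Fgfr2, Dtx4 and Adra1b are lowest in combination heart 1, and Ppargc1a overlaps apart from combination heart 1 at -0.475, with control heart 6 highest at 0.38.

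Among genes that lost the threshold when a single heart was left out were some of the widest differences. Car4, a carbonic anhydrase of capillary endothelium, read -1.06, -2.09, -0.76, -0.05 and 0.10 in combination hearts, against -0.38 to 0.72 in controls, a difference of -0.996 (SE 0.39) that was -0.67 and short of the threshold without heart 2. Hsph1, a heat shock protein of the HSP110 family, read 2.60 in heart 1 and -0.24 to 0.59 in the other combination hearts, against -0.57 to 0.26 in controls, so that its difference of 0.76 (SE 0.33) was 0.28 without heart 1. Hbegf, an EGF receptor ligand, read 0.97 and 1.51 in combination hearts 1 and 3, -0.22 to 0.04 in the other combination hearts and -0.72 to 0.27 in controls (difference 0.72, SE 0.26). Stfa3, a stefin protease inhibitor of leukocytes, differed by 0.81 (SE 0.31) and Akr1c14, a 3-alpha-hydroxysteroid dehydrogenase, by -0.71 (SE 0.31). Reg3b, a secreted lectin of gut and pancreas that is also made in injured heart muscle, differed by -0.77 (SE 0.34), but control heart 1 read 2.46 and the remaining controls -0.35 to 0.99.

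The mitochondrial ribosome, which makes the proteins encoded by mitochondrial DNA, was the list with the most genes past the threshold. All 73 measured subunits had a positive difference, 19 passed as higher (26%) and none as lower, and the median difference was 0.26. Over all 14506 genes the same figures were 51.3% positive, 2.54% higher and a median of 0.00. The list averaged 0.68, 0.31, 0.14, -0.002 and 0.14 in combination hearts 1 to 5, against -0.25 to 0.26 in controls, whose own range was wide, with controls 3 and 5 at 0.16 and 0.26. Combination heart 1 was the highest of the 12 and heart 4 lay near the middle of the controls. Mrpl19, a large-subunit protein, read 0.85, 0.58, 0.41, 0.07 and 0.28 in combination hearts, against -0.81 to 0.29 in controls, with a median of 0.00 (difference 0.56, SE 0.17; exact permutation p = 0.0152), and it passed in all 12 fits. Mrps27, a small-subunit protein with RNA-binding repeats, read 0.71, 0.47, 0.24, 0.06 and 0.12 in combination hearts, against -0.52 to 0.33 in controls (difference 0.45, SE 0.15; exact permutation p = 0.0354), and it also passed in all 12.

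Several other mitoribosomal genes fell short of the threshold without combination heart 1. Mrps10, of the small subunit, read 0.96, 0.35, 0.20, 0.13 and 0.24 in combination hearts, against -0.21 to 0.20 in controls. Its difference of 0.42 (SE 0.12) was 0.27 without heart 1. Dap3, a GTP-binding small-subunit protein also studied as a mediator of apoptosis, was higher by 0.37 (SE 0.10), Mrpl40 by 0.37 (SE 0.13) and Mrpl55 by 0.45 (SE 0.16), and each fell short of the threshold without heart 1. The study lists the probe set read for Mrpl40 as a similar gene and gives Mrpl40 itself at 0.35. Mrpl38, of the large subunit, differed by 0.38 (SE 0.19) and did not pass. The large-subunit gene written mrpl24 in the annotation was higher by 0.61 (SE 0.26). Kgd4, a subunit of the oxoglutarate dehydrogenase complex that the list holds under its former name Mrps36, was among the 19. The median of the list was 0.16 without heart 1 and 0.11 without hearts 1 and 2, where none of the 73 passed, and 0.12 with 1 gene past the threshold without combination heart 1 and control heart 1.

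Fewer of the other nuclear-encoded mitochondrial genes passed the threshold. Of 32 measured subunits of respiratory complex I, all differed positively and 4 passed (12.5%, beside 2.54% higher over all genes), with a list median of 0.16. These were Ndufa2 at 0.41 (SE 0.14), Ndufs5 at 0.40 (SE 0.14), Ndufb2 at 0.35 (SE 0.16) and Ndufs8 at 0.34 (SE 0.16). All 4 fell short of the threshold without combination heart 1, where the list median was 0.10, and it was 0.075 with none past the threshold without combination heart 1 and control heart 1. Of 37 genes of complexes II to V none passed and the median was 0.08, although 35 of the 37 were positive. Uqcrq, of complex III, differed by 0.19 (SE 0.08) and Atp5mc1, the c ring of ATP synthase, by 0.20 (SE 0.08). Of 28 genes of mitochondrial import and chaperones 5 passed as higher (17.9%). Chchd4, which oxidises imported proteins in the intermembrane space, was higher by 0.46 (SE 0.15) in all 12 fits. The study lists the probe set read under a LOC name and not as Chchd4. It gives Chchd4 itself at 0.45 and a similar gene at 0.43, so these are not independent readings of 1 gene. Pam16, of the import motor, was higher by 0.49 (SE 0.21), Hspe1, the HSP10 co-chaperonin, by 0.37 (SE 0.13) and Grpel1, the nucleotide exchange factor of mitochondrial HSP70, by 0.36 (SE 0.15), and these 3 fell short without combination heart 1. The list median was 0.19, and 0.11 without that heart. Of 24 genes for the fission, fusion and turnover of mitochondria 2 passed as higher (8.33%, beside 2.54% over all genes). These were Mtfp1, which promotes fission, at 0.68 (SE 0.24) and in all 12 fits, and Bnip3. Complex I averaged 0.43, 0.19, 0.13, -0.01 and 0.12 in combination hearts, against -0.23 to 0.22 in controls.

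The regulator usually placed above these genes showed no difference past the threshold. Ppargc1a, the coactivator PGC1-alpha that drives mitochondrial biogenesis, read -0.475, 0.07, -0.03, 0.10 and 0.01 in combination hearts, against -0.23 to 0.38 in controls, a difference of -0.06 (SE 0.12; exact permutation p = 0.62). Of 22 genes in the list of PGC1 and mitochondrial regulators 1 passed, Sirt5, a mitochondrial desuccinylase, at 0.36 (SE 0.15), and the list median was 0.01. That p does not show the groups to be equal.

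**Figure D4:**
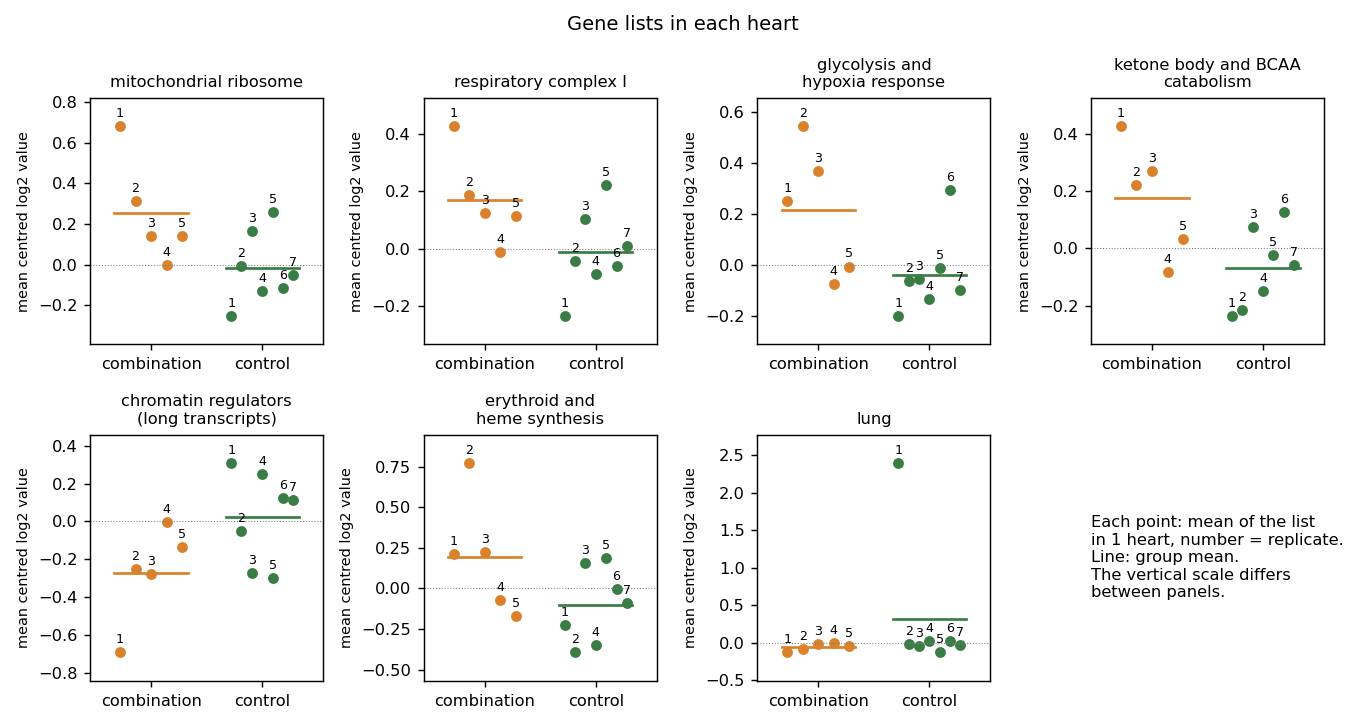
Mean centred log2 value of 7 gene lists in each heart, combination exposed on the left (orange) and control on the right (green), with the replicate number beside each point and a line at the group mean, on a vertical scale that differs between panels. Combination heart 1 lies beyond all controls for the mitochondrial ribosome, complex I, chromatin and erythroid lists. Heart 2 does so for the mitochondrial ribosome, glycolysis and erythroid lists, and heart 3 for the glycolysis and erythroid lists. Hearts 4 and 5 lie among the controls for these lists, and control heart 1 reads 2.40 for the lung list. For the ketone body and branched-chain list the middle combination heart, at 0.22, lies above the highest control, at 0.125.

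Glycolytic and hypoxia-responsive genes were the other large group. Of 44 measured, 11 passed as higher (25%) and none as lower, with a median of 0.20, beside 2.54% and 0.00 over all genes. The list averaged 0.25, 0.54, 0.37, -0.08 and -0.01 in combination hearts, against -0.20 to 0.29 in controls, with control heart 6 alone above zero. Here heart 2 and not heart 1 was the highest. Pgk1, phosphoglycerate kinase, an ATP-yielding step of glycolysis, read 0.48, 0.44, 0.25, 0.07 and 0.04 in combination hearts, against -0.31 to 0.04 in controls (difference 0.42, SE 0.11; exact permutation p = 0.00253). It passed in all 12 fits and its difference was 0.34 without combination heart 1 and control heart 1. Slc16a3, the lactate exporter MCT4, read 0.79, 1.20, 0.91, -0.13 and -0.01 in combination hearts, against -1.21 to 0.39 in controls (difference 0.81, SE 0.31; exact permutation p = 0.0316). P4ha1, a collagen prolyl hydroxylase, was higher by 0.72 (SE 0.31), Bnip3, a mitophagy receptor, by 0.60 (SE 0.25) and Egln3, an oxygen-sensing prolyl hydroxylase of the hypoxia-inducible factors, by 0.52 (SE 0.25), and each of these lost the threshold without combination heart 1, 2 or 3.

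The other glycolytic genes past the threshold, named after their values were seen, were Pfkl (0.49, SE 0.23), Pgam1 (0.38, SE 0.14) and Ldha (0.35, SE 0.11), for phosphofructokinase, phosphoglycerate mutase and lactate dehydrogenase, with Higd1a (0.40, SE 0.19), Fam162a (0.41, SE 0.14) and Ero1a (0.35, SE 0.15) among the hypoxia-responsive ones. Pdk1, the kinase that shuts off pyruvate dehydrogenase and a target of the same factors, was counted with the citric acid cycle and was higher by 0.50 (SE 0.20). Some of the widest differences in the list missed the threshold. Hk2, hexokinase 2, named after its values were seen, read 1.07, 2.25, 1.78, -0.15 and -0.03 in combination hearts, against -0.37 to 1.38 in controls, the highest being control heart 6 (difference 0.94, SE 0.46). Combination hearts 1, 2 and 3 and control heart 6 were the 4 high hearts for Hk2. Car12, a carbonic anhydrase and also named after its values were seen, read 1.65, 2.36, 1.65, -0.56 and -0.14 in combination hearts, against -0.67 to 1.20 in controls.

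Promoters of Bnip3 and P4ha1 of this list, of Pdk1 of the citric acid cycle list, of Mgarp, which is in no list, and of 2 mitoribosomal genes are shown to place short motifs in their sequence. They were chosen for holding a match, and the promoters of Slc16a3, Egln3, Mrpl55, Dap3 and Ak4 held none. Sequences are those of RefSeq on GRCr8, 250 bases before to 50 bases after the start, 5′ to 3′ on the strand of the gene. Letters in capitals are matches on either strand to ACGTG (the core of the hypoxia response element, also part of the E-box of other factors), to TGCGCA (the core of the NRF1 site, its own reverse complement) or to CCGGAAG (a core of ETS factors such as GABP).
Bnip3 (chr1:203154913-203155212, minus strand): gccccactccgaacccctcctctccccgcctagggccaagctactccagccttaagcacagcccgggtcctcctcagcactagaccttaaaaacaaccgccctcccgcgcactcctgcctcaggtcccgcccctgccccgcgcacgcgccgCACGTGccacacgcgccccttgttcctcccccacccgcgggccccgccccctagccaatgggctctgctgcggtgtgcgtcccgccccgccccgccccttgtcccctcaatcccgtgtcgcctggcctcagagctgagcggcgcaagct
Pdk1 (chr3:77113264-77113563, plus strand): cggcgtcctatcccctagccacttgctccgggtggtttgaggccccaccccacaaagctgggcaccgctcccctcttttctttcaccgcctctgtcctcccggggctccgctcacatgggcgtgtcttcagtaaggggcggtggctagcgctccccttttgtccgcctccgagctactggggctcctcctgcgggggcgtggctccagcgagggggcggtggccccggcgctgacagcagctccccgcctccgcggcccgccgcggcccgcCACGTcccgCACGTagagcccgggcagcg
P4ha1 (chr20:27844796-27845095, plus strand): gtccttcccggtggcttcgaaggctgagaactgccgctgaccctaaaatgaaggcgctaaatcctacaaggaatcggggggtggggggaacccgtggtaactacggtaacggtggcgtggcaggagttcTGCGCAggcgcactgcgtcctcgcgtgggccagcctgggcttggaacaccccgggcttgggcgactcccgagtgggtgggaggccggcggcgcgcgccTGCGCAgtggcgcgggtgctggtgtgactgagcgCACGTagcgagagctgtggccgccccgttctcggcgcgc
Mgarp (chr2:137590245-137590544, minus strand): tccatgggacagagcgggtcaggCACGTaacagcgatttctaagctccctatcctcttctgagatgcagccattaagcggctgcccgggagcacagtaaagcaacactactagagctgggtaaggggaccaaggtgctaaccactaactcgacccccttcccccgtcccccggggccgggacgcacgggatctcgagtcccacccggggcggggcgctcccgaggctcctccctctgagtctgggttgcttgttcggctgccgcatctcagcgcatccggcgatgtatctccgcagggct
Mrps10 (chr9:21122404-21122703, minus strand): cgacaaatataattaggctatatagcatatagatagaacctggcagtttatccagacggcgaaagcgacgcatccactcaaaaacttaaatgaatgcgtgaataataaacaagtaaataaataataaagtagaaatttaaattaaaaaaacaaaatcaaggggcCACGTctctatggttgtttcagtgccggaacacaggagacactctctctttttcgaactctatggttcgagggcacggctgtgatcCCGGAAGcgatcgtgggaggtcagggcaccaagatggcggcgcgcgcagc
Mrps27 (chr2:32473954-32474253, plus strand): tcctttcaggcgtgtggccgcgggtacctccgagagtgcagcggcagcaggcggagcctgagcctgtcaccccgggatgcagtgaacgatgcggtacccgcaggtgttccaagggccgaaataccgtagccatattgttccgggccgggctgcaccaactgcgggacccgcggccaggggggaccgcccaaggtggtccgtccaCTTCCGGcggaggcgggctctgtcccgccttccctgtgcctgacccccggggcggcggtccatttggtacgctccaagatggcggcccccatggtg

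In the Bnip3 promoter the 2 matches to ACGTG overlap in a single palindrome, and Pdk1 holds 2 separate matches. P4ha1 holds 1 match to ACGTG and 2 to TGCGCA, and Mgarp 1 to ACGTG. Mrps10 holds 1 match to ACGTG and 1 to CCGGAAG, and Mrps27 1 to CCGGAAG. Of the promoters found for 40 of the 44 glycolysis and hypoxia genes 52.5% held ACGTG, beside 22.3% of the 11968 genes of the array with a promoter in the table and 19.7% of all 27457 genes in it. Of 59 mitoribosomal promoters 25.4% held ACGTG, 25.4% held TGCGCA (10.6% on the array) and 30.5% held CCGGAAG (12.9% on the array). Of 316 promoters of higher genes 31.6% held ACGTG, 14.2% TGCGCA and 20.3% CCGGAAG. Of 122 promoters of lower genes the shares were 20.5%, 5.74% and 6.56%. The median GC content was 59.0% in higher and 61.2% in lower genes, beside 58.0% on the array. These are letter matches with no test, and binding was not measured.

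Genes of other fuels did not move as 1 group. Of 19 genes that break down ketone bodies or branched-chain amino acids 3 passed as higher (15.8%, beside 2.54% over all genes), with a median of 0.195. Beside Bdh1 these were Bckdhb, a subunit of the branched-chain ketoacid dehydrogenase, which read 0.75, 0.38, 0.37, -0.04 and 0.25 in combination hearts, against -0.23 to 0.05 in controls (difference 0.43, SE 0.12; exact permutation p = 0.00631), and Pcca, a subunit of propionyl-CoA carboxylase, at 0.34 (SE 0.14). Bckdhb passed in all 12 fits and 4 of the 5 combination hearts were above all controls. Of 33 genes of fatty acid oxidation 1 passed, Cpt1a, the liver-type gatekeeper of mitochondrial fatty acid entry, lower by 0.50 on the log2 scale (difference -0.50, SE 0.23), and the list median was -0.03. Cpt1a read -1.13, -0.63, -0.87, 0.19 and 0.11 in combination hearts, against -0.46 to 0.25 in controls, and passed in 6 of the 12 fits. Cpt1b, the muscle form and named after its values were seen, differed by -0.10 (SE 0.10). Of 21 genes of the citric acid cycle and pyruvate dehydrogenase Pdk1 alone passed. Of 25 genes of glycogen and gluconeogenesis none passed and the median was 0.01. Gyg1, the primer of glycogen, lay between 0.05 and 0.09 in combination hearts, against -0.17 to 0.01 in controls, a difference of 0.12 (SE 0.05) with no overlap but well under the fold limit, and Ugp2, which makes UDP-glucose, differed by 0.29 (SE 0.11).

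Signalling by insulin and FGF was read from 2 lists. Of 28 genes of insulin, PI3K, AKT and mTOR signalling 4 had a positive difference and the median was -0.14, which was -0.07 without combination heart 1. The single gene past the threshold was Trib3, a pseudokinase that binds AKT and is induced by stress, at 0.41 (SE 0.20), and combination heart 2 at 1.35 set most of it. Akt1 differed by -0.05 (SE 0.06), Akt2 by -0.09 (SE 0.08) and Gsk3b, the glycogen synthase kinase that AKT inhibits, by -0.19 (SE 0.13), none past the threshold. Of 21 FGF ligands and receptors 2 passed as lower (9.52%, beside 1.04% over all genes) and the median was -0.12. Fgfr2, the receptor for several FGFs, read -0.74, -0.45, -0.33, -0.24 and -0.15 in combination hearts, against -0.21 to 0.61 in controls, with a median of 0.00 (difference -0.47, SE 0.14; exact permutation p = 0.00505). It passed in all 12 fits, 4 of 5 combination hearts lay below all controls, and its difference was -0.29 and short of the fold limit without combination heart 1 and control heart 1. Fgf7, a ligand of the b isoform of that receptor, read -0.29, -0.54, -0.34, 0.01 and -0.13 in combination hearts, against -0.25 to 0.26 in controls (difference -0.33, SE 0.12; exact permutation p = 0.0164), and passed in 4 of the 12 fits.

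Genes of heart muscle and of cardiac stress are set beside 2.54% higher and 1.04% lower over all genes. Of 20 genes of cardiac stress and hypertrophy 2 passed as higher (10%), both in all 12 fits. Edn1, endothelin-1, a constrictor peptide that also drives myocyte growth, read 0.99, 0.21, 1.10, 0.46 and 0.41 in combination hearts, against -0.91 to 0.70 in controls (difference 0.75, SE 0.25; exact permutation p = 0.0417). Its difference was 0.77 without hearts 1 and 2. Nppb, the natriuretic peptide BNP, read 0.35, 0.30, 0.48, 0.00 and -0.12 in combination hearts, against -0.83 to 0.24 in controls (difference 0.44, SE 0.15; exact permutation p = 0.0518). Nppa, its atrial relative and named after its values were seen, differed by 0.10 (SE 0.07). Of 35 genes of calcium cycling and ion channels 1 was higher (2.86%) and 3 lower (8.57%, beside 1.04% over all genes), with a median of -0.13. The higher one was Kcne1. The lower ones were Cacna1g, a T-type calcium channel (-0.64, SE 0.25), Gja5, the conduction connexin Cx40 (-0.45, SE 0.21) and Cacna1c, the L-type calcium channel of excitation-contraction coupling (-0.37, SE 0.17). Cacna1g fell short without combination heart 1 or 2, and Gja5 and Cacna1c passed in 6 and 5 of the 12 fits. Without hearts 1 and 2 together none of this list passed and its median was -0.04.

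Of 25 sarcomere genes 1 passed as lower (4%, beside 1.04% over all genes). This was Mylk3, the cardiac myosin light chain kinase, which read -0.70, -0.72, -0.39, -0.04 and 0.00 in combination hearts, against -0.13 to 0.26 in controls (difference -0.43, SE 0.15). Of 24 cardiac transcription factors 1 passed as lower (4.17%), Irx4, a ventricular factor (-0.39, SE 0.16), short of the threshold without combination heart 1 or 2. In this list 4 of the 24 were positive, with a median of -0.18. That list averaged -0.48 in combination heart 1 and -0.12 to -0.001 in the other combination hearts, against -0.07 to 0.13 in controls, and its median was -0.07 without heart 1. Of 38 cell cycle genes 1 passed as higher (2.63%, beside 2.54% over all genes), Cdk1, the kinase of mitotic entry, at 0.43 (SE 0.16). Cdk1 read 0.54, 0.38, -0.02, 0.11 and 0.24 in combination hearts, against -0.74 to 0.45 in controls, and it fell short without combination heart 1.

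The lower genes held a block of chromatin regulators. Of 25 measured genes with long transcripts, a list of histone methyltransferases, acetyltransferases and remodellers, all were negative and 9 passed as lower (36%), with a median of -0.29, beside 1.04% lower over all genes. The list averaged -0.69, -0.25, -0.28, -0.003 and -0.135 in combination hearts, against -0.30 to 0.31 in controls. Kmt5b, given above, passed in all 12 fits. Nsd1, a histone H3 lysine 36 methyltransferase, was lower at -0.43 (SE 0.16), Crebbp, the acetyltransferase CBP, at -0.42 (SE 0.16) and Chd3, a helicase of the NuRD complex, at -0.40 (SE 0.15), each short of the threshold without combination heart 1. Long genes as a class also read low in that heart. The median of 1631 genes spanning over 100 kb less that of 5050 genes under 10 kb was -0.27 in combination heart 1, against -0.04, -0.04, 0.00 and -0.01 in the other combination hearts and -0.06 to 0.05 in controls. With this index as a covariate 197 probe sets passed the threshold, an alternative chosen after seeing the data. The list median was -0.17 without heart 1. Of 34 Zbtb zinc finger factors 2 were lower by the annotation used here (5.88%, beside 1.04% over all genes). Zbtb1, a factor of lymphoid development, read -0.06, -0.20, -0.58, -0.14 and -0.17 in combination hearts, against -0.05 to 0.35 in controls, without overlap (difference -0.35, SE 0.09; exact permutation p = 0.00126), and the difference was -0.42 without hearts 1 and 2. Zbtb44 differed by -0.34 (SE 0.11), at a probe set that the study lists as Prdm10.

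Genes of stress and protein synthesis past the threshold were all higher, beside 2.54% higher and 1.04% lower over all genes. Of 29 genes of the unfolded protein and integrated stress responses 5 were higher (17.2%), among them Sdf2l1, a co-factor of the ER chaperone BiP (0.70, SE 0.32), Asns, asparagine synthetase (0.55, SE 0.22), Mthfd2, of mitochondrial folate metabolism (0.42, SE 0.18), and Trib3, and the list median of 0.20 was 0.11 without heart 1. Asns read 0.72, 1.26, 0.24, -0.14 and 0.00 in combination hearts, against -0.57 to 0.28 in controls. Of 33 antioxidant genes 2 were higher (6.06%), Gstk1, a mitochondrial and peroxisomal glutathione transferase (0.46, SE 0.19), and Mpst, a sulfurtransferase (0.41, SE 0.16). Of 67 cytosolic ribosomal protein genes 66 were positive but 1 passed (1.49%), Rps3 (0.33, SE 0.12), short of it without combination heart 1 or 2, and the median of 0.11 was 0.01 without hearts 1 and 2. Of 30 proteasome genes none passed, with a median of 0.12 that was 0.02 without hearts 1 and 2. Psma4, of the core particle, differed by 0.22 (SE 0.10) and Psmd14, its lid deubiquitinase, by 0.28 (SE 0.14).

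Markers of red cells moved with the same hearts. Of 32 erythroid and heme genes 5 were higher (15.6%, beside 2.54% over all genes), with a median of 0.25 that was 0.11 without combination heart 2 and 0.05, with none past the threshold, without hearts 1 and 2. The list averaged 0.22, 0.77, 0.23, -0.07 and -0.17 in combination hearts, against -0.40 to 0.19 in controls. Beside Ahsp these were Hbg1 (0.84, SE 0.34), a fetal-type globin, Hbe2 (0.37, SE 0.17), an embryonic-type globin named after its values were seen, Uros (0.71, SE 0.23), of heme synthesis, and Car1 (0.62, SE 0.29), the red cell carbonic anhydrase. Hbg1 read 1.28, 1.97, 0.08, -0.24 and -0.32 in combination hearts, against -1.18 to 0.26 in controls. With the erythroid mean as a covariate 339 probe sets passed the threshold, beside 965 without it.

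Few markers of other cell types passed the threshold, beside 2.54% higher and 1.04% lower over all genes. Of 22 macrophage and monocyte genes 1 passed, S100a8, with a list median of 0.13 that was 0.18 without control heart 1 and 0.04 without combination heart 1, and a list mean of 0.31, 0.36 and 0.45 in combination hearts 1 to 3 and -0.17 and -0.03 in hearts 4 and 5, against 0.64 in control heart 1 and -0.16 to 0.24 in the other controls. S100a8, a calcium-binding protein of neutrophils and monocytes, was higher by 0.35 (SE 0.17) and passed in 3 of the 12 fits. Of 21 lymphocyte and MHC class II genes 1 passed, Cd4, lower at -0.53 (SE 0.25) with 2.16 in control heart 1, and the list median of -0.365 was 0.04 without that heart. Of 14 lung genes 1 passed, Ager, lower at -0.36 (SE 0.17) with 1.17 in control heart 1, and the median of -0.34 was -0.03 without it. Of 29 interferon response genes Ifi44l was lower (-0.45, SE 0.20), with 1.09 in control heart 1. Of 31 fibroblast and matrix genes Ccn2, connective tissue growth factor, was higher (0.65, SE 0.29). It read 1.27 in combination heart 3 and -0.06 to 0.39 in the other combination hearts, against -1.23 to 0.65 in controls. Of 27 endothelial genes Sele, the adhesion molecule E-selectin, was higher in all 12 fits (0.68, SE 0.22) and Aplnr, the apelin receptor, was lower (-0.53, SE 0.20). Sele read 1.51, 1.18, 0.74, -0.19 and -0.14 in combination hearts, against -0.28 to 0.17 in controls.

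None of 14 smooth muscle and pericyte, 11 epicardial, 13 adipose or 14 liver genes passed, with medians of -0.01, 0.06, -0.15 and 0.04. In the first 2 of these lists Abcc9, the sulfonylurea receptor of pericytes and muscle, differed by -0.29 (SE 0.16), Pdgfrb, a pericyte receptor, by -0.21 (SE 0.13), Tbx18, an epicardial factor, by -0.25 (SE 0.13) and Msln, mesothelin, by 0.21 (SE 0.20). Ucp1, the brown fat uncoupling protein, lay between -0.81 and 0.49 in combination hearts, against 2.49, 3.34 and 2.44 in control hearts 1, 2 and 3 and -0.79 to 0.00 in the other controls, and Adipoq differed by -0.89 (SE 0.46). Cps1 and Apoa2, of the liver list, differed by 0.13 (SE 0.06) and 0.12 (SE 0.06). Of 19 skeletal muscle genes 2 were higher, Myl1, a fast myosin light chain (0.63, SE 0.18), and Myh3, embryonic myosin (0.32, SE 0.12). Myl1 read 1.05, 0.18, 0.35, 0.32 and 0.32 in combination hearts, against -0.77 to 0.22 in controls (exact permutation p = 0.00379), and it is among the few genes for which hearts 4 and 5 stood above all controls. Of 20 Schwann cell and neuron genes Mal, a myelin protein, was higher (0.34, SE 0.15), and fell short without combination heart 1 or control heart 4.

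The remaining lists are set beside 2.54% higher and 1.04% lower over all genes. Of 25 clock and glucocorticoid genes 3 were lower (12%), Per3 (-0.78, SE 0.35), Nr1d2 (-0.48, SE 0.23) and Per2 (-0.36, SE 0.16), repressors of the molecular clock. Per3 and Nr1d2 each passed in 5 of the 12 fits that left out 1 heart, and Per2 in 6. Per3 read -1.39, -1.19, -0.95, 0.29 and 0.00 in combination hearts, against -0.52 to 0.72 in controls. Of 21 Notch and Deltex genes Notch2 (-0.35, SE 0.17) and Dtx4 were lower (9.52%). Of 14 Reg3 and pancreatic genes Reg3b was lower (7.14%). Of 24 immediate early genes Ccn1, a matrix protein induced by stretch and growth factors, was higher (0.70, SE 0.30), and the list averaged 1.02 in combination heart 3 and -0.13 to 0.25 in the other combination hearts, against 1.05 in control heart 6 and -0.43 to 0.01 in the other controls. Of 19 amino acid transporters Slc7a3, a cationic transporter, was higher (0.37, SE 0.13). Of 19 imprinted growth genes none passed, and Mest differed by 0.23 (SE 0.10) and Nnat by -0.27 (SE 0.13). Nxf1, the main exporter of mRNA from the nucleus, differed by 0.09 (SE 0.10) and did not pass.

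The single exposures were set beside the combination for 7 genes described above, which do not stand for all genes named here. These comparisons with control share the 7 control hearts, so only each value is given. Fgfr2 differed from control by -0.47 in combination, 0.01 in diabetes and 0.09 in HF diet hearts. The difference between combination and diabetes hearts was -0.48 (limma adjusted p = 0.528) and that between combination and HF diet hearts -0.56 (adjusted p = 0.368). Edn1 differed from control by 0.75 in combination, -0.08 in diabetes and -0.09 in HF diet hearts, and combination less diabetes was 0.83 (adjusted p = 0.528) and combination less HF diet 0.84 (adjusted p = 0.368). Dtx4 differed from control by -0.51, -0.03 and -0.25 in combination, diabetes and HF diet hearts. Pgk1 differed from control by 0.42, 0.14 and 0.14 in the same order, Mrps10 by 0.42, 0.02 and 0.02, Bdh1 by 1.20, 0.58 and 0.17, and Ahsp by 1.38, 1.00 and 0.16. For Ahsp the difference between combination and diabetes hearts was 0.38 (adjusted p = 0.777). Outside the 7, Drd4 and Reg3b are added for their wide differences in a single exposure. In the same order Drd4 differed from control by -0.63, -0.46 and -0.49, and Reg3b by -0.77, -0.415 and -0.99. The mitoribosomal list averaged between -0.002 and 0.68 in combination hearts, -0.16 and 0.31 in diabetes hearts, -0.15 and 0.07 in HF diet hearts and -0.25 and 0.26 in controls. No difference between combination and either single exposure passed an adjusted p under 0.05 for the genes named here.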

How the data were processed

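RNA of whole newborn hearts was hybridised to Affymetrix Rat Gene 1.0 ST arrays, 1 heart to an array. The deposited values are log2 signals that the authors made with GeneChip and GeneSpring GX software, and each of the 29170 rows has a median of 0 over the 23 arrays. No source used here gives the normalization algorithm, and signal over background cannot be read from centred values, so precision rests on the number of arrays. No repeated normalization was applied in the main analysis.

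Group means of all 4 groups were fitted to the log2 values of the 23 hearts with limma 3.58.1 in R 4.3.3 (lmFit and eBayes, 19 residual degrees of freedom), and the contrast of combination with control was read. The threshold was the methods' fold limit, 0.322 on the log2 scale, with an unadjusted p under 0.05, and Benjamini-Hochberg values were taken over all 29170 probe sets. For single genes an exact two-sided permutation test ran over the 792 splits of the 12 hearts. Its p-values are unadjusted and take no account of how the genes were chosen. Genes were named from the platform annotation, 15310 probe sets having 1 symbol, 323 several and 13537 none, which gave 14506 genes. Where a gene had several probe sets, the one with the largest variance over the 23 hearts was read, a choice that favours wide differences. The differences of the others were recorded. The other probe set was under the fold limit for Pam16 (0.29), Ldha (0.22) and Rps3 (0.19). It was beyond the limit for Bnip3 (0.56), Mthfd2 (0.40), Ndufs5 (0.37), Mrpl41 (0.36), Mrpl40 (0.35), Pgam1 (0.33) and Fbxl20 (-0.33).

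Named genes were those with the largest differences that passed in all 12 fits leaving out 1 heart, 10 in each direction, the largest remaining differences, 5 in each direction, up to 4 members past the threshold in each list (or the 2 with the smallest p) and the genes the study singles out. Hk2, Car12, Pfkl, Pgam1, Ldha, Higd1a, Fam162a, Ero1a, Hbe2, Kgd4, Cpt1b, Nppa, Sftpc and Cd3g fall outside this rule and were named after their values were seen. The members, lists and tests were chosen with earlier results of these data known. Lists are described by counts and medians, with no test. The fits were tested on simulated data. Alternatives were other samples, moderation, normalization, filters, code stems, the replicate block and covariates. A covariate of protein length was not run because no protein table was used, nor one of Y-linked genes because 0 of the 8 asked were named. The deviations of same-numbered hearts correlated at -0.116, -0.123, -0.156, 0.429 and -0.232 for numbers 1 to 5, so the numbers were not taken to pair the hearts.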

Additional observations from a re-analysis of the deposited data

Results flagged for a closer look

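Of 94 groups of hearts examined over 47 genes, 7 held a heart far from the rest of its own group by Dixon's criterion, and chance flags about 1 in 20 groups. Combination heart 1 was apart in 3 genes. Mrps10 read 0.956 in it, the next highest combination heart being 0.351. Ppargc1a read -0.475 in it, the next lowest being -0.026, and Nxf1 read -0.382, the next lowest being 0.026. Among controls, Ppargc1a read 0.378 in heart 6, the next highest being 0.008. Drd4 read 1.138 in control heart 7, with 0.373 next, and Dtx4 read 0.528 in control heart 1, with 0.19 next. Akr1c14 read -0.683 in control heart 2, with -0.006 next.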

How the results depend on the processing

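The count of 965 probe sets past the threshold ran from 348 without combination heart 1 to 2103 without combination heart 4, and none passed an adjusted p under 0.05 in these fits. It was 680 with the replicate number as a block, 361 by the methods' t-test, 380 with array weights, 454 after a second quantile normalization, 306 with each heart scaled to the median SD, 550 over probe sets with 1 gene symbol, which tests fewer probe sets, and 339 once the erythroid mean entered as a covariate. Alternatives chosen after seeing the data gave 197 with the gene length index as a covariate, 234 without combination hearts 1 and 2, 3599 without combination hearts 4 and 5, where 194 passed an adjusted p under 0.05, and 221 without combination heart 1 and control heart 1. The cause of these changes was not tested.

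None of the 93 genes past the threshold that were followed through every alternative changed direction, but Hbe2, which was not among them, differed by 0.37 with all hearts and -0.002 without combination hearts 1 and 2. Of list medians beyond 0.1 in size, that of calcium cycling was 0.001 with the gene length index, that of macrophages -0.016 with the erythroid mean and -0.008 with the gene length index, and that of lymphocyte and MHC class II genes 0.043 without control heart 1 and 0.057 without combination heart 1 and control heart 1, each opposite in sign to the value with all hearts. Leaving out 1 heart at a time, the last of these medians ran from -0.457 to 0.043. The median of erythroid genes was -0.034 with the erythroid mean. That covariate is the mean of the same list, so the fit brings this median near zero by construction. Smaller medians changed sign under some alternatives too, those of the PGC1, Reg3, Schwann cell, epicardial, fibroblast, glycogen, imprinted, sarcomere and skeletal muscle lists and the following. Fatty acid oxidation was -0.026 with all hearts and 0.035 without combination heart 1, endothelium -0.038 and 0.021, smooth muscle -0.009 and 0.059 and amino acid transport -0.06 and 0.014. Interferon response was -0.056 and, without control heart 1, 0.013, and clock genes -0.097 and, without combination heart 1 and control heart 1, 0.015. Covariates of protein length and of Y-linked genes were not run.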
